A study of Mus musculus with 6 samples.

Results

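The BCL2 family is the set of proteins that decides whether a cell under stress keeps its mitochondria intact or enters apoptosis. In these data 10 of its genes, out of 21878 genes counted, were examined in thyroid glands with and without a thyroid-directed *Tet1* knockout. The genes were taken by symbol from the table of counts and chosen by their known roles: 3 anti-apoptotic genes (*Bcl2*, *Bcl2l1* and *Mcl1*), 2 effector genes (*Bax* and *Bak1*) and 5 BH3-only genes (*Bcl2l11*, *Bbc3*, *Bid*, *Bad* and *Bmf*). All 10 had enough counts to be tested. The set was selected with results of this contrast already known, so the values of the 10 genes are given as a description, without a test.

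Anti-apoptotic members bind and restrain the effectors BAX and BAK, which otherwise perforate the outer mitochondrial membrane, release cytochrome c and start the caspase cascade. BH3-only proteins are the stress sensors of the family: they occupy the groove of the anti-apoptotic members or engage the effectors directly. Much of this control acts on proteins, through binding, phosphorylation and degradation, which counts of transcripts do not measure. Thyroid follicular cells are long-lived secretory cells that are well known to carry BCL2 protein.

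RNA was sequenced from thyroid glands of female mice at 12 weeks of age, with 3 libraries of *Thy-Tet1*+/+ mice (wild-type littermates) and 3 libraries labelled *Thy-Tet1*-/-. The knockout came from a floxed *Tet1* allele and a Cre transgene that is active in follicular epithelial cells, so that every other cell type of the gland would keep *Tet1*. The sample titles read control for *Thy-Tet1*+/+ and treatment for *Thy-Tet1*-/-, and columns of counts were matched to titles by initial and number. Apart from genotype no treatment of the mice was described, and each library is described as a separate mouse. Whether the wild-type littermates carried a floxed allele or the Cre transgene was not stated, and the deposited protocol mentions retinas where the tissue is given as thyroid. The question put to these libraries was which transcripts of the gland differ when follicular cells lack *Tet1*.

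Total counts were 8867683 in *Thy-Tet1*+/+ replicate 1 and 16624425 to 19950898 in the other 5 libraries. A level of 3 counts was 0.152 to 0.356 CPM (counts scaled to the TMM-adjusted library total), a floor that covers counting error only. The thyroid label was checked with 11 follicular markers. *Tg*, the thyroglobulin gene, was at 190900 to 313700 CPM, while *Slc26a4*, the gene of the iodide transporter pendrin, was at 0.0508 to 0.277 CPM. The summed follicular markers were 257200 to 317100 CPM in *Thy-Tet1*+/+ and 194100 to 240000 CPM in the libraries labelled *Thy-Tet1*-/-. *Tg* made up 98.3% to 98.9% of these sums, and without it they were 3480 to 4497 CPM and 3220 to 3557 CPM, with overlap. The markers did not move together: *Iyd* (-0.63) and *Dio1* (-0.72) were past the limits and lower, *Nkx2-1* (log2 fold change 0.65) was past them and higher, and *Pax8* (0.42) lay higher without overlap. Transcripts of immature T cells set 2 libraries apart. The sum of 5 thymocyte genes was 72.1 CPM in *Thy-Tet1*+/+ replicate 1 and 292.7 CPM in replicate 3 labelled *Thy-Tet1*-/-, against 2.19 to 18.4 CPM in the other 4. Of the 5 genes, 4 were highest in the latter of these 2 libraries and second in the former. The remaining gene, *Cd1d1*, made up nearly all of the sum in replicates 1 (18.2 CPM) and 2 (10.8 CPM) labelled *Thy-Tet1*-/-. It was past the limits and higher by label (log2 fold change 1.82, without overlap). The sum of 10 skeletal muscle genes ran from 18.6 to 8273 CPM and that of 4 parathyroid genes from 191.7 to 31340 CPM, with overlapping groups. The sum of 7 adipocyte genes was 157.8 to 534.1 CPM in *Thy-Tet1*+/+ and 371.5 to 1739 CPM in the libraries labelled *Thy-Tet1*-/-. Each of the 7 had a positive log2 fold change (1.24 to 2.62) with overlapping groups, and *Fabp4*, *Lep* and *Ucp1* were past the limits. The marker genes were named after their values had been seen, and the part of any of these tissues in the results that follow was not tested.

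*Tet1*, the targeted gene, had 5.70, 3.80 and 3.44 CPM in the *Thy-Tet1*+/+ libraries and 9.37, 9.60 and 12.2 CPM in the libraries labelled *Thy-Tet1*-/-. Its transcripts were therefore more abundant in every library labelled as the knockout than in any control. On the log2 scale the difference was 1.28 ± 0.27 (SE, n = 3 per group; adjusted p = 0.101, edgeR's quasi-likelihood test over 14143 genes). DESeq2, with its Wald test, placed it at 1.31 (adjusted p = 0.0012), and the other 14 of 15 alternatives gave adjusted p-values up to 0.367 with edgeR or limma. Counts are per gene and do not show the deleted exon alone. Each group is therefore called by its label.

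Of the 10 members, *Bcl2l1* was lower in the libraries labelled *Thy-Tet1*-/- by 1.89-fold, *Bmf* lay higher by 1.47-fold without reaching the limits of the study, and the other 8 had overlapping groups. The limits were a change beyond 1.5-fold (log2 scale) with an unadjusted p under 0.05. They were passed by 1 of 10 members, lower, and by 9.20% of all tested genes, made up of 5.54% higher and 3.66% lower. Groups did not overlap for 2 of 10 members and for 26.8% of the tested genes. In that respect 1 member lay higher, as did 12.5% of the tested genes, and 1 lay lower, as did 14.3%. *Bcl2l1* was among the 16 genes, 0.113% of those tested, that edgeR called at an adjusted p under 0.05, a call that was lost when any single library was left out. It was also lost with scaling to 10 epithelial genes, a skeletal muscle covariate or a replicate block, and without both libraries that held thymocyte transcripts. Since this contrast was known when the members were selected, nothing is read from these counts or from the call of *Bcl2l1*. The median log2 fold change was -0.08 over the 10 members and 0.0006 over all tested genes.

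**Figure D1:**
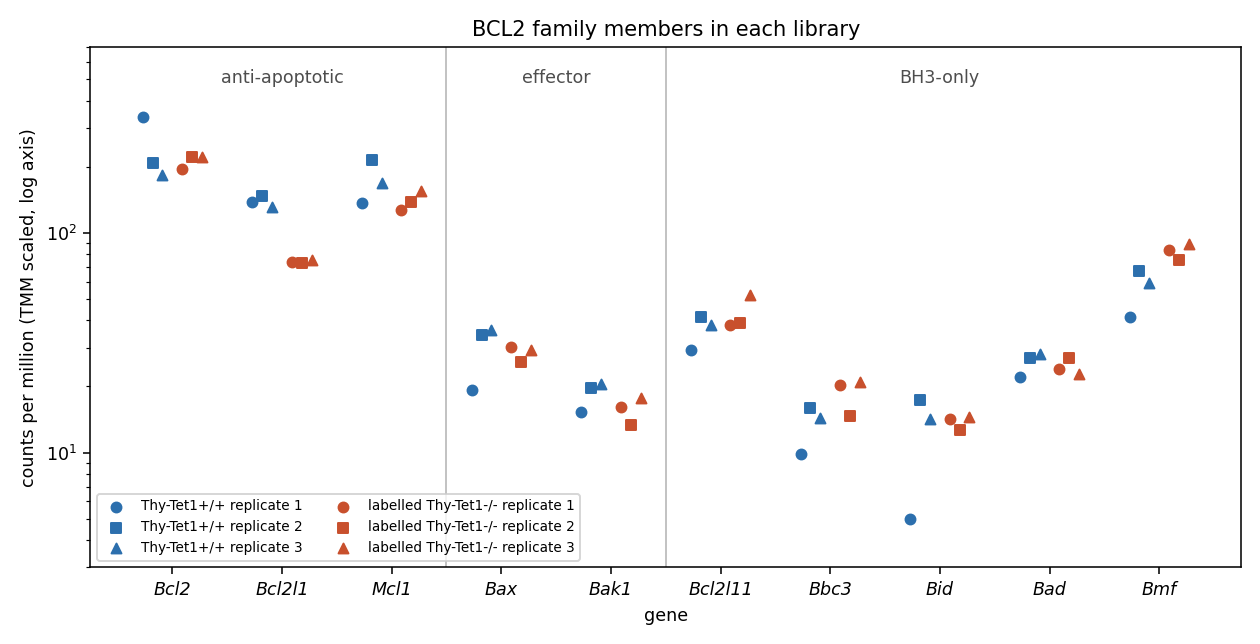
CPM of the 10 members (TMM scaled, log axis) in each of the 6 libraries, with *Thy-Tet1*+/+ in blue and libraries labelled *Thy-Tet1*-/- in orange. The 3 groups of roles are divided by grey lines. *Bcl2l1* sits between 131.9 and 147.8 CPM in *Thy-Tet1*+/+ and between 72.9 and 75.1 CPM in the other group, while *Thy-Tet1*+/+ replicate 1 is the lowest library for 6 of the 10 members and the highest for *Bcl2*.

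*Bcl2l1* encodes BCL-XL, which restrains both effectors and the BH3-only activators. It lies at chr2:152780668-152831728 on the minus strand of GRCm38, the same assembly as the mm10 build named in the submitters' notes. Its levels were 138.7, 147.8 and 131.9 CPM in the *Thy-Tet1*+/+ libraries and 73.5, 72.9 and 75.1 CPM in the libraries labelled *Thy-Tet1*-/-. The 6 libraries formed a high and a low cluster by label, and within each cluster the spread was small. The means were 139.5 ± 7.94 CPM and 73.8 ± 1.10 CPM (SD, n = 3 each), and the log2 fold change was -0.92 ± 0.10 (SE). Leaving out each library in turn gave -0.96 to -0.87, and without both libraries that held thymocyte transcripts it was -0.93. The gene counts do not separate the long isoform, which protects cells, from the short isoform, which promotes death. In bulk tissue, fewer cells of a type and less RNA per cell cannot be told apart. The follicular markers moved in both directions, with *Tg* lying lower (-0.43, without overlap) and *Nkx2-1* higher in the libraries labelled *Thy-Tet1*-/-. Most of the epithelial genes described below were lower there, among them *Cdh1* (-0.63) and *Esrp1* (-0.38) without overlap, while *Cldn3* and *Cldn4* were not. The part of cell content in the *Bcl2l1* difference was not tested.

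The direction of the *Bcl2l1* difference held under all 15 alternatives, and it was past the limits on size and unadjusted p under 14 of them. The exception was scaling of the libraries to 10 epithelial genes, which placed it at -0.51. That scaling moved the median log2 fold change of all tested genes to 0.41 and the share of genes past the limits that were higher from 60.2% to 96.8%. In the TMM-scaled data most of the 10 epithelial genes were themselves lower in the libraries labelled *Thy-Tet1*-/-. Their log2 fold changes ran from -1.18 for *Krt8* and -1.13 for *Krt7* to -0.18 for *Epcam*. *Cldn3* (0.02) and *Cldn4* (0.38) went the other way. The genes named here were picked after their values had been seen.

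Because *Bcl2l1* and *Bmf* are the members whose groups separated, the sequences around their furthest upstream starts are shown. A window of *Bcl2l11* is shown for its FOXO motif, since *Foxo3* is among the regulators described further on. Each window runs from 250 bases before to 50 bases after a transcription start, 5′ to 3′ on the strand of the gene, from RefSeq on GRCm38.p6, in lower case with matched motifs in capitals.
*Bcl2l1* (chr2:152831679-152831978, minus strand): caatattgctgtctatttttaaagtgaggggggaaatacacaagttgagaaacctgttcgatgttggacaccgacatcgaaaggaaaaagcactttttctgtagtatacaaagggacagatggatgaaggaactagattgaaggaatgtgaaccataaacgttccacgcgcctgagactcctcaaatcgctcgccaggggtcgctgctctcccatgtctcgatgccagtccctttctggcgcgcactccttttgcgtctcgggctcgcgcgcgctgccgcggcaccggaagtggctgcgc
*Bmf* (chr2:118549637-118549936, minus strand): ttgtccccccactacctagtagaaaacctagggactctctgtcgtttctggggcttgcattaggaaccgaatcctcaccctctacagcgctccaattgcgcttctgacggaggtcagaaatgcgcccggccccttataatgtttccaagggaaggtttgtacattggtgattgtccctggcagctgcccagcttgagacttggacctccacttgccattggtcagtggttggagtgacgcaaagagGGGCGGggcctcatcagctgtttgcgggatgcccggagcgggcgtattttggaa
*Bcl2l11* (chr2:128125788-128126087, plus strand): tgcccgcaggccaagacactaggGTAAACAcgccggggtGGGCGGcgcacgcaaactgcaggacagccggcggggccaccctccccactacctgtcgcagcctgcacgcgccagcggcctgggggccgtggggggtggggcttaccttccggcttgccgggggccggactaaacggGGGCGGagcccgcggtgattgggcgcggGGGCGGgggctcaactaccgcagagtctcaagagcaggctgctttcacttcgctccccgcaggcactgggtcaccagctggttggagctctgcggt
The motifs searched on both strands were TTCNNNGAA (STAT), TGTTTAC (FOXO), CACGTG (E-box), GGGCGG (GC box) and TGACGTCA (cyclic AMP response element). They occur in 8.30%, 3.65%, 7.15%, 35.7% and 1.79% of 32851 windows of this length.

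All 10 members matched, with 18 windows and a GC content of 49.3% to 78.0%. The GC box was in 11 of the 18 windows, with 7 copies in that of *Bcl2*. None of the 3 windows of *Bcl2l1* held any of the 5 motifs. Of the 3 windows of *Bmf* the one shown held 1 GC box, which begins at base -4 and runs across the start, and the other 2 held none of the motifs. The FOXO motif was in 2 windows, at base -227 of the first *Bcl2l11* start and at base -167 of the second of 3 *Bbc3* starts. The E-box was in 2 windows, of *Bax* and *Bbc3*, and the STAT motif and the cyclic AMP response element were in 0. A match is a run of letters and says nothing about binding.

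*Mcl1*, whose short-lived product guards against BIM and NOXA, lies at chr3:95658788-95663176. It had 136.2, 215.0 and 169.4 CPM in *Thy-Tet1*+/+ and 127.3, 138.9 and 155.8 CPM in the libraries labelled *Thy-Tet1*-/-. The lowest control fell inside the range of the other group, and the log2 fold change was -0.30 ± 0.18 (SE). *Thy-Tet1*+/+ replicate 2 set the top of the range, and without it the value was -0.12. Without both libraries that held thymocyte transcripts it was -0.53.

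*Bcl2*, the founding member of the family, spans chr1:106538178-106714274. Its levels were 336.7, 207.9 and 183.2 CPM in *Thy-Tet1*+/+ and 195.7, 221.2 and 222.6 CPM in the libraries labelled *Thy-Tet1*-/-. One control library stood far above the other 5, which lay within 183.2 to 222.6 CPM whatever their label. The log2 fold change of -0.19 ± 0.24 (SE) turned to 0.12 without that library, *Thy-Tet1*+/+ replicate 1. In the same library, genes with over 8000 bases of exon had a median log2 difference of 0.17 from the mean of the other controls, and genes of up to 2000 bases one of -0.31. *Bcl2* has 9157 bases of exon and differed there by 0.78. *Bcl2l11*, the other member of over 8000 bases (8029), differed by -0.44 in the same library. The part of transcript length in these values was not tested.

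The effectors had overlapping groups. *Bax* (chr7:45461697-45466898) had 19.3, 34.4 and 36.3 CPM in *Thy-Tet1*+/+ and 30.2, 25.7 and 29.3 CPM in the libraries labelled *Thy-Tet1*-/-. The second group lay wholly inside the range of the controls, whose lowest value was again that of replicate 1. This gave a log2 fold change of -0.08 ± 0.24 (SE), with -0.32 when that library was left out. *Bak1* (chr17:27019810-27029009), the second effector, had 15.3, 19.6 and 20.4 CPM against 16.1, 13.3 and 17.8 CPM, a log2 fold change of -0.23 ± 0.18 (SE). It was -0.14 without replicate 2 labelled *Thy-Tet1*-/- and -0.45 without both libraries that held thymocyte transcripts. Neither effector gene passed the limits under any of the 15 alternatives.

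*Bmf*, whose product is held on the actin and myosin V cytoskeleton and released when epithelial cells lose attachment, had the highest fold change of the members. It lies at chr2:118528757-118549687. Its levels were 41.4, 67.4 and 59.0 CPM in *Thy-Tet1*+/+ and 83.6, 75.2 and 88.9 CPM in the libraries labelled *Thy-Tet1*-/-. Every library of the second group lay above every control, with the closest pair at 67.4 and 75.2 CPM. The means were 55.9 ± 13.3 CPM and 82.6 ± 6.87 CPM (SD, n = 3 each), and the log2 fold change was 0.56 ± 0.19 (SE), just under the limit on size. It was past the limits under 5 of the 15 alternatives, with 0.71 without *Thy-Tet1*+/+ replicate 2. Without *Thy-Tet1*+/+ replicate 1 it was 0.38, and without both libraries that held thymocyte transcripts 0.33.

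*Bbc3* encodes PUMA, a target of p53 that engages every anti-apoptotic member, and lies at chr7:16308393-16318205. It had 9.85, 15.9 and 14.4 CPM in *Thy-Tet1*+/+ and 20.3, 14.7 and 20.99 CPM in the libraries labelled *Thy-Tet1*-/-. Replicate 2 labelled *Thy-Tet1*-/- fell among the controls, and the other libraries of that group lay above them. On the log2 scale the difference was 0.47 ± 0.24 (SE), and 0.21 without both libraries that held thymocyte transcripts. Leaving out each library in turn gave 0.30 to 0.61, and a covariate for the skeletal muscle score gave 0.20.

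*Bcl2l11* encodes BIM, which removes self-reactive thymocytes as well as stressed epithelial cells, and lies at chr2:128126038-128162547. It had 29.3, 41.4 and 38.2 CPM in *Thy-Tet1*+/+ and 38.1, 38.8 and 52.2 CPM in the libraries labelled *Thy-Tet1*-/-. The 2 libraries with most thymocyte transcripts lay at opposite ends, *Thy-Tet1*+/+ replicate 1 lowest and replicate 3 labelled *Thy-Tet1*-/- highest. The other 4 lay between 38.1 and 41.4 CPM. The log2 fold change was 0.24 ± 0.19 (SE) with all libraries and -0.05 without both libraries that held thymocyte transcripts. It was 0.11 without the former alone and 0.07 without the latter alone. The part of thymocyte transcripts in these values was not tested.

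*Bid*, which caspase-8 cleaves to link death receptors to mitochondria, lies at chr6:120891930-120916853. It had 4.98, 17.3 and 14.2 CPM in *Thy-Tet1*+/+ and 14.2, 12.6 and 14.5 CPM in the libraries labelled *Thy-Tet1*-/-. Apart from *Thy-Tet1*+/+ replicate 1, where 42 reads were counted, the libraries were alike across the groups. The log2 fold change of 0.17 ± 0.41 (SE) had the largest standard error of the members and was -0.19 without that library. *Bad*, which growth factor signalling through AKT keeps inactive, lies at chr19:6941861-6951899. It had 22.1, 27.0 and 28.0 CPM against 24.0, 26.9 and 22.8 CPM, and the log2 fold change was -0.07 ± 0.14 (SE). The ranges of the groups largely coincided for *Bad*.

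Ratios of counts within a library do not depend on how libraries are scaled. *Bcl2* to *Bax*, a ratio often taken as a measure of the threshold for apoptosis, was 17.4, 6.04 and 5.05 in the *Thy-Tet1*+/+ libraries, against 6.47, 8.60 and 7.59 in the other group. The groups overlapped only through *Thy-Tet1*+/+ replicate 1, and the difference in mean log2 ratio was -0.11 with it and 0.44 without it. *Bcl2l1* to *Bax* was 7.17, 4.29 and 3.64 against 2.43, 2.84 and 2.56, without overlap and with a difference of -0.89 on the log2 scale. *Mcl1* to *Bcl2l11* was 4.65, 5.19 and 4.43 against 3.34, 3.58 and 2.98, a difference of -0.53 without overlap.

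A further 3 ratios, of *Bcl2l1* to the BH3-only genes with the largest fold changes, were added after the values had been seen. *Bcl2l1* to *Bmf* was 3.35, 2.19 and 2.24 in the *Thy-Tet1*+/+ libraries, against 0.88, 0.97 and 0.84 in the other group. Reads of *Bcl2l1* therefore outnumbered those of *Bmf* in each control library and were fewer than those of *Bmf* in each library of the other group. The differences in mean log2 ratio were -1.50 for *Bmf*, -1.41 for *Bbc3* and -1.16 for *Bcl2l11*, and in none of the 3 did the groups overlap. All of these share *Bcl2l1*, so they are not separate observations of it. They pair the member with the lowest fold change with those with the highest, so wide differences follow from the choice. How often the ratios of other gene pairs separate was not examined.

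**Figure D2:**
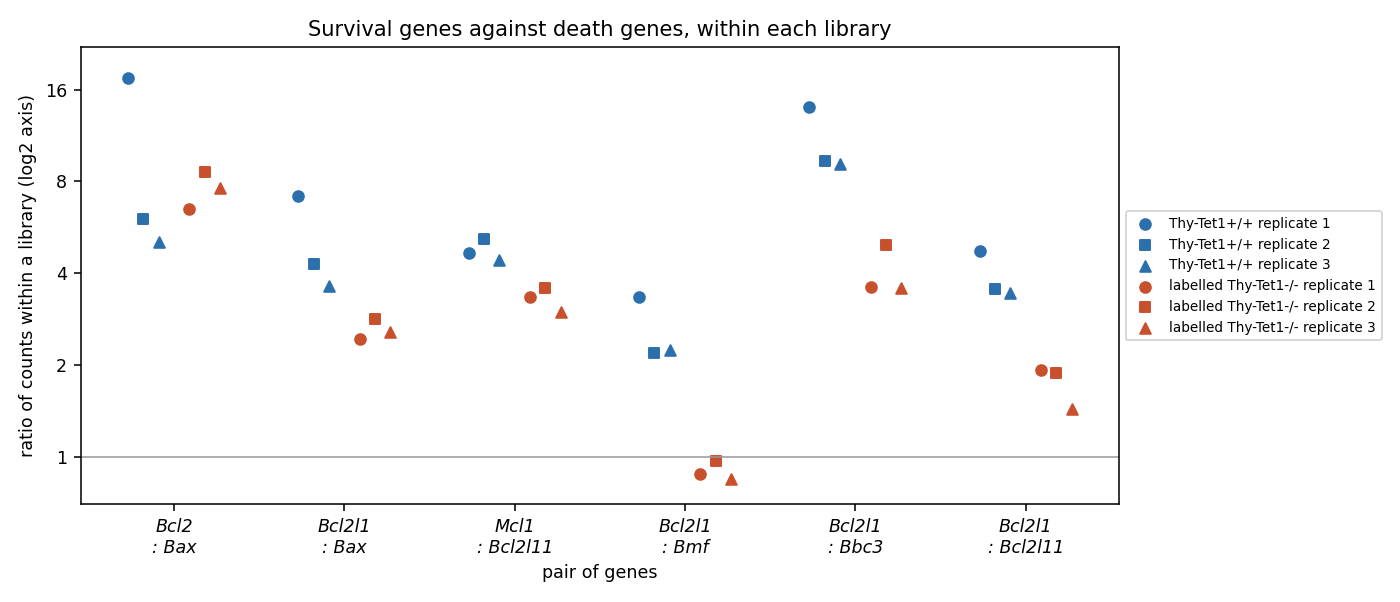
Ratio of the counts of an anti-apoptotic gene to those of an effector or BH3-only gene within each library (log2 axis), with *Thy-Tet1*+/+ in blue and libraries labelled *Thy-Tet1*-/- in orange. The grey line marks equal counts. *Bcl2* to *Bax* overlaps between the groups, and *Bcl2l1* to *Bmf* lies at 2.19 to 3.35 in *Thy-Tet1*+/+ and at 0.84 to 0.97 in the other group.

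To compare levels between genes, CPM were divided by the exon length of each gene in kilobases. In *Thy-Tet1*+/+ the order was *Mcl1* (50.8 ± 11.6 CPM per kb), *Bcl2l1* (30.4 ± 1.74), *Bcl2* (26.5 ± 9.001), *Bax* (19.0 ± 5.90), *Bmf* (10.7 ± 2.53), *Bad* (10.04 ± 1.24), *Bak1* (7.67 ± 1.15), *Bbc3* (6.30 ± 1.48), *Bcl2l11* (4.52 ± 0.78) and *Bid* (3.42 ± 1.80; SD, n = 3 each). Among neighbours in this order only *Mcl1* over *Bcl2l1* and *Bad* over *Bak1* were separated in all libraries. In the libraries labelled *Thy-Tet1*-/- the order began *Mcl1* (41.2 ± 4.19), *Bcl2* (23.3 ± 1.65), *Bax* (18.03 ± 1.52), *Bcl2l1* (16.1 ± 0.24) and *Bmf* (15.7 ± 1.31). *Bcl2l1* thus had rank 2 in the controls and rank 4 in the other group, where its values overlapped those of *Bax* above it and *Bmf* below it.

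*Mcl1*, *Bcl2l1* and *Bcl2* made up 29.7%, 18.1% and 16.1% of the summed CPM per kb of the 10 members in the controls, compared with 27.7%, 10.9% and 15.7% where the label was *Thy-Tet1*-/-. The anti-apoptotic share was 70.4%, 62.4% and 58.7% in the controls and 51.8%, 56.6% and 54.4% in the other group. The BH3-only share was 17.3%, 21.7% and 22.5% against 30.3%, 28.1% and 29.2%. Neither of these shares overlapped between the groups, and the shares of 1 library sum to a whole, so that a lower share of one role raises the others. The shares cover the 10 members only and leave out every other BCL2 family gene, among them the anti-apoptotic *Bcl2l2*. That gene had 68.6 to 79.4 CPM and lay higher without overlap in the libraries labelled *Thy-Tet1*-/-. How the shares change when further family genes are counted was not examined. The effector share was 15.7 ± 3.27% against 16.6 ± 1.32% (SD, n = 3 each), with overlap.

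**Figure D3:**
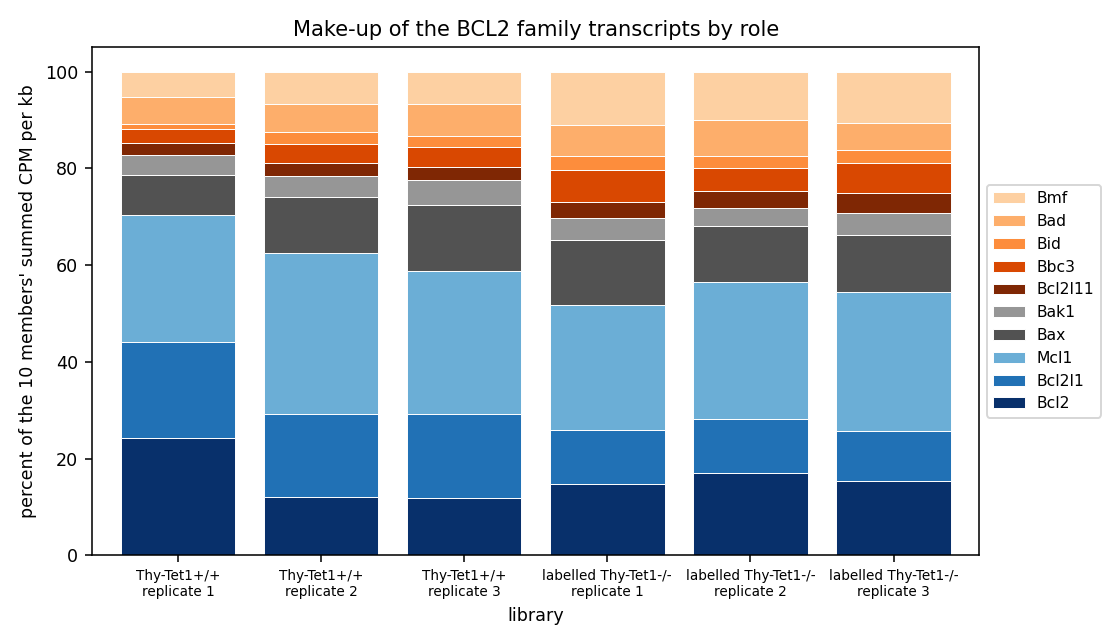
Share of each member in the summed CPM per kb of exon of the 10 members, in percent, for each library, with anti-apoptotic genes in blue, effectors in grey and BH3-only genes in orange. The blue part is 58.7% to 70.4% in *Thy-Tet1*+/+ and 51.8% to 56.6% in the libraries labelled *Thy-Tet1*-/-, and the orange part is 17.3% to 22.5% and 28.1% to 30.3%.

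Of 15 further BCL2 family genes, 11 were tested and 1 (9.09%) was past the limits, beside 9.20% of all tested genes. This was *Bcl2l12*, which encodes a family-related protein reported to dampen caspase activity, with 3.32, 5.99 and 8.38 CPM in *Thy-Tet1*+/+ and 9.70, 9.95 and 11.8 CPM in the libraries labelled *Thy-Tet1*-/-. The groups did not overlap, and the log2 fold change was 0.82 ± 0.34 (SE), with an adjusted p of 0.262 from edgeR's quasi-likelihood test. It was no longer past the limits with a covariate for the skeletal muscle score, where 0 of the list were, nor without *Thy-Tet1*+/+ replicate 1 or 2 or without replicate 1, 2 or 3 labelled *Thy-Tet1*-/-. In size it stood at 0.54 (log2) without *Thy-Tet1*+/+ replicate 1 and at 0.71 to 0.84 in the rest of these fits. Without both libraries that held thymocyte transcripts, the count was again 1, but that gene was *Hrk*. *Bcl2l2*, the gene of the anti-apoptotic BCL-W, had 72.8, 73.6 and 68.6 CPM against 78.8, 79.4 and 74.1 CPM. The closest libraries of its groups were at 73.6 and 74.1 CPM, and the log2 fold change was 0.11 ± 0.09 (SE, adjusted p = 0.560 from edgeR). *Pmaip1*, the gene of the MCL1-binding NOXA, was low in all libraries at 0.60 to 3.42 CPM, with overlapping groups and a log2 fold change of -0.56 ± 0.78 (SE, adjusted p = 0.744 from edgeR). The median log2 fold change over the 11 tested genes was 0.10.

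Downstream of mitochondrial permeabilization, 18 apoptosome, caspase and caspase inhibitor genes were examined, and 0 were past the limits, beside 9.20% of all tested genes. With edgeR 3 of them had an unadjusted p under 0.05, and 0 passed the limits with DESeq2 or limma-voom. Groups did not overlap for the same 3 genes, beside 26.8% of all tested genes, of which *Birc2* lay higher and *Cflar* and *Vdac3* lower. *Cflar* encodes FLIP, the inhibitor of caspase-8, and had 204.2, 146.0 and 152.3 CPM in *Thy-Tet1*+/+ and 118.3, 131.2 and 118.1 CPM in the libraries labelled *Thy-Tet1*-/-. The lowest control stood above the highest library of the other group, with a log2 fold change of -0.45 ± 0.16 (SE, adjusted p = 0.197 from edgeR). *Vdac3*, the gene of a channel of the outer mitochondrial membrane, had 94.3, 86.5 and 100.1 CPM against 72.3, 80.8 and 59.8 CPM, a log2 fold change of -0.40 ± 0.14 (SE, adjusted p = 0.197 from edgeR). *Casp9*, the initiator caspase, and *Apaf1*, the scaffold that activates it, had log2 fold changes of 0.16 ± 0.13 and 0.32 ± 0.26 (SE), with overlapping groups and adjusted p of 0.5503 and 0.558 in edgeR. With scaling to 10 epithelial genes 6 of the 18 were past the limits, each higher. The median over the list was 0.09, beside 0.0006 for all tested genes. *Birc2* was named after its values had been seen.

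The last list held regulators of the BH3-only genes and of survival signalling, together with p53 targets such as *Cdkn1a* and *Sesn2*. Its tested genes past the limits were all lower. Of 23 listed genes 22 were tested, and 4 (18.2%) were past the limits, each lower in the libraries labelled *Thy-Tet1*-/-, beside 9.20% of all tested genes in either direction and 3.66% lower. The groups of 9 did not overlap, each lying lower, beside 26.8% of all tested genes in either direction and 14.3% lower. *Trp73*, too low to be tested, went the other way, with 0 counts in each *Thy-Tet1*+/+ library and 7, 6 and 5 in the others. The median log2 fold change was -0.26. The list was drawn up with earlier results of these data known.

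*Foxo3* encodes a transcription factor that AKT holds in the cytoplasm and that is known to induce *Bcl2l11* and *Bbc3*. It had 332.8, 227.5 and 217.6 CPM in *Thy-Tet1*+/+ and 128.6, 128.3 and 143.9 CPM in the libraries labelled *Thy-Tet1*-/-. The groups were well apart, and the log2 fold change was -0.96 ± 0.19 (SE), with an adjusted p of 0.0965 from edgeR's quasi-likelihood test. The genes it is known to induce had log2 fold changes of 0.24 and 0.47, without separation of their groups. *Sesn2*, a stress-induced inhibitor of mTORC1 signalling that p53 is known to induce, had 57.3, 55.9 and 40.9 CPM against 15.7, 19.2 and 16.5 CPM. It was the only gene of the 3 lists of connected genes with an adjusted p under 0.05 in edgeR's test, at 0.0466, with a log2 fold change of -1.58 ± 0.17 (SE). With each library left out in turn its fold change stayed between -1.72 and -1.50 and its adjusted p from edgeR was 0.0727 to 0.31.

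*Cdkn1a*, the p53 target that encodes the cell cycle inhibitor p21, had 47.0, 150.0 and 105.6 CPM in *Thy-Tet1*+/+ and 24.6, 24.9 and 20.0 CPM in the libraries labelled *Thy-Tet1*-/-. The controls were widely spread, and even the lowest lay above the other group. *Cdkn1a* had a log2 fold change of -2.12 ± 0.40 (SE, adjusted p = 0.0912 from edgeR). *Trp53*, the gene of p53 itself, had 34.0, 45.4 and 47.0 CPM against 47.0, 44.6 and 57.7 CPM, with overlap and a log2 fold change of 0.24 ± 0.17 (SE, adjusted p = 0.490 from edgeR). *Bbc3* and *Bax*, which p53 also induces, are given above with 0.47 and -0.08. *Ywhaz*, a 14-3-3 gene whose product sequesters phosphorylated BAD, had 330.9, 295.7 and 299.9 CPM against 186.3, 198.8 and 207.6 CPM. Its groups did not overlap, with a log2 fold change of -0.64 ± 0.11 (SE, adjusted p = 0.0817 from edgeR). The Wald test of DESeq2 gave these 4 genes adjusted p-values from 1.17e-11 to 0.000107. They remained past the limits without both libraries that held thymocyte transcripts. With scaling to 10 epithelial genes, *Cdkn1a* and *Sesn2* stayed past them and lower, *Foxo3* and *Ywhaz* did not pass, and *Trp53* passed them as higher.

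**Figure D4:**
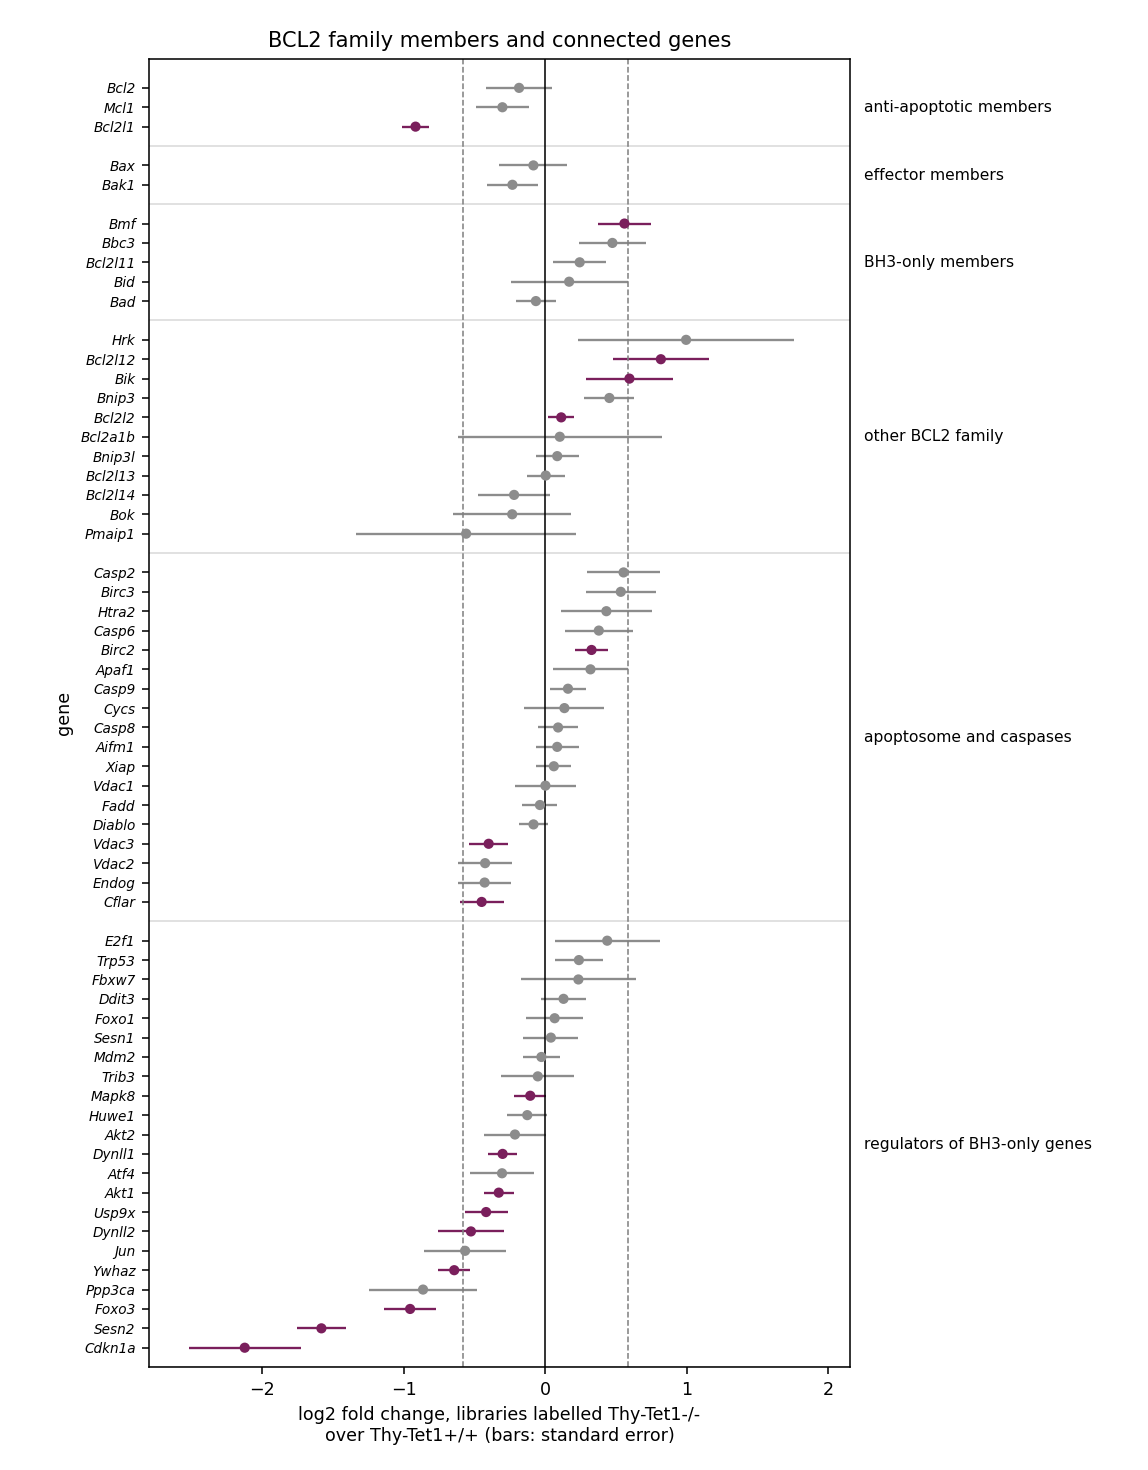
Log2 fold change of the libraries labelled *Thy-Tet1*-/- over *Thy-Tet1*+/+ for the 10 members and the tested genes of 3 lists of connected genes, with standard errors as bars. Purple marks genes whose groups of 3 libraries did not overlap, and dashed lines mark the limit of the study on size. *Bcl2l1* lies at -0.92 and *Bmf* at 0.56, and the 4 genes of the regulator list past the limits lie between -2.12 and -0.64.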

How the data were processed

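The authors deposited raw read counts per gene, without normalization, for 6 libraries. The genome build mm10 is named in the submitters' processing notes; the aligner, counting program and annotation are not given in the sources used here, nor is whether counting used strand. The table held 0 other per-library columns, and 27 symbols that had become dates were restored from their gene identifiers. The analysis used edgeR 4.0.16 in R 4.3.3 (filterByExpr, TMM, quasi-likelihood test, Benjamini-Hochberg adjustment), which kept 14143 of 21878 genes. The code was tested on simulated data. CPM used TMM-scaled library sizes. Exon lengths and overlaps came from GENCODE M21.

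The members, lists and tests were chosen with earlier results of these data known. Named genes were all members, *Tet1*, the genes past the limits in each list or else the 2 with the smallest p, and *Casp9*, *Apaf1*, *Pmaip1*, *Bcl2l2* and *Trp53*. Alternatives were RLE factors, DESeq2 1.42.0, limma-voom (limma 3.58.1), 2 other filters, epithelial scaling, a muscle score covariate, a replicate block and each library left out. Leaving out both libraries with thymocyte transcripts was added after seeing the data. The p-values set the difference between the groups against the spread of libraries within them, which is estimated with information shared across genes. Results for some genes are not reported here, and the list of apoptosome and caspase genes is given without them.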

Additional observations from a re-analysis of the deposited data

How the results depend on the processing

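Among the members, *Bcl2l1* was past the limits under 14 of 15 alternatives and lower under all 15. The number of members past the limits was 1, became 3 with scaling to 10 epithelial genes (*Bcl2l11*, *Bbc3* and *Bmf*, all higher, without *Bcl2l1*) and 2 with the replicate block, which added *Bmf* at 0.59, and was 1 to 2 with 1 library left out. *Bmf* was added without *Thy-Tet1*+/+ replicate 2 or 3 and without replicate 2 labelled *Thy-Tet1*-/-. For the other BCL2 family genes the count of 1 became 2 with no filter on low counts, 3 with epithelial scaling, 0 with the muscle covariate and 0 to 2 with 1 library left out. For the apoptosome and caspase genes the count of 0 became 6 with epithelial scaling, 1 with the replicate block (*Casp2*) and 0 to 2 with 1 library left out, with 2 without *Thy-Tet1*+/+ replicate 2 (*Casp6* and *Birc3*). For the regulators the count of 4 became 6 with no filter on low counts, where *Trp73* was past the limits as higher, and 4 to 7 with 1 library left out, with 7 without *Thy-Tet1*+/+ replicate 3. *Tet1* passed the adjusted threshold with DESeq2 alone, at 1.31. The difference in log2 ratio of *Bcl2* to *Bax* ranged from -0.45 to 0.44 with 1 library left out. Over all genes, the 16 calls at an adjusted p under 0.05 in edgeR became 1192 with DESeq2. With the muscle covariate they became 0, as with the replicate block, where 1900 genes had an unadjusted p under 0.05. They became 0 to 1 with 1 library left out, and neither *Bcl2l1* nor *Sesn2* kept an adjusted p under 0.05 in any of these 6 fits.

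Same-numbered libraries did not deviate together (correlations of -0.17, -0.37 and -0.19), so the replicate number is not taken as a pairing. The shallowest library, *Thy-Tet1*+/+ replicate 1, holds 42 to 2838 counts per member. Exons of *Bad*, *Bak1*, *Bcl2* and *Bid* overlap a gene on the other strand, and those of *Bax* a gene on the same strand, so part of their counts is uncertain.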

Other observations

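A few genes of the lists were too low to be tested. *Bcl2l15*, a family member with a BH2 and a BH3-like region, had 2, 3 and 3 counts in *Thy-Tet1*+/+ and 20, 5 and 14 counts in the libraries labelled *Thy-Tet1*-/-. *Bcl2a1a* and *Bcl2a1d*, near-identical paralogs that can share reads, had 2 to 35 and 3 to 17 counts, with overlapping groups. *Bcl2l10* had at most 4 counts in any library.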
